A study of Mus musculus with 19 samples.

Results

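The genes described here are 4 transcription factors that take the Wnt signal to DNA and 6 of the genes they are known to control. The factors are Tcf7, Lef1, Tcf7l1 and Tcf7l2, and the targets are Sp5, Sox9, Myc, Ccnd1, Ccnd2 and Cd44. They were chosen by gene symbol from the 32694 symbols of the deposited expression table, and all 10 had enough signal to be among the 18445 genes tested. RNA was sequenced from mouse colon in 3 groups, all at 12 weeks of age, with 1 library per mouse. Wild-type colon came from 3 females and 2 males. The Apc tumours, from 3 females and 4 males, arose in mice in which Villin-Cre had removed 1 allele of Apc, and each library held 1 tumour. The Apc/Tgif tumours, also from 3 females and 4 males, carried the same Apc deletion and in addition lost both alleles of Tgif1 and both of Tgif2 through Villin-Cre. Villin-Cre acts in the intestinal epithelium, so other cells of the tumour keep these alleles, and the wild-type samples are labelled as colon tissue and not as isolated epithelium.

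In canonical Wnt signalling, β-catenin escapes a cytoplasmic destruction complex built on Apc and Axin, enters the nucleus and binds Tcf/Lef factors that already sit on DNA. Without β-catenin these factors recruit Groucho/Tle corepressors, and with it they activate genes of proliferation and of the stem cell state. Tcf7l2 is the main family member of intestinal epithelium and Tcf7l1 is known mostly as a repressor, while Tcf7 and Lef1, which are also strongly expressed in T cells, are themselves Wnt targets. In the colon, the pathway maintains the crypt base, and loss of Apc switches it on.

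Values are normalized counts, the deposited counts per gene after division by a factor for each library. Library totals were 34417808 to 44732717, or about 28700000 to 49000000 reads before scaling, so 1 normalized count stands for roughly 1 read. Of the targeted genes, Tgif1 was 3815 ± 803 normalized counts in Apc tumours and 354 ± 137 in Apc/Tgif tumours (SD, n = 7 each). Tgif2 was 642 ± 92.1 and 2657 ± 352, which is higher in the tumours labelled null for it. Which exons were removed is not stated in the labels, so a whole-gene value does not check the deletion. What follows on Apc/Tgif tumours therefore depends on the genotype in their labels. Normalized counts of Apc itself averaged 5771 (wild type), 6334 (Apc) and 7272 (Apc/Tgif), and no comparison of it passed the test. All 16 epithelial markers were detected. Of them 2 were higher and 9 lower in Apc tumours and 2 higher and 8 lower in Apc/Tgif tumours, with sums of 656200 to 832800 in wild-type colon, 370400 to 742900 in the Apc tumours and 431600 to 559800 in Apc/Tgif tumours. In markers of other cells, all 12 smooth muscle markers and all 11 B cell markers measured were lower in both tumour groups, and 11 of 12 neutrophil markers were higher. The remaining neutrophil marker, Ly6g, was lower in both, at 7471 normalized counts in wild-type colon, 2659 in Apc and 668 in Apc/Tgif tumours. Over all genes tested, 23.9% were higher and 25.2% lower in Apc tumours, and 24.8% and 25.5% in Apc/Tgif tumours. In bulk tissue, fewer cells of a type and less RNA per cell cannot be told apart.

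Tcf/Lef factors bind a short DNA core, which was looked for in the promoters of the 10 genes. RefSeq start sites of the GRCm38.p6 build gave 11 windows of 250 bases before a start for 6 of the 10 genes. They were searched on both strands for 4 forms of the Tcf/Lef core: CTTTGAT, then CTTTGAA, then CTTTGTT and also CTTTGTA. A match was found in 3 windows of 3 genes, against 14.8% of all 32851 windows of the same length. These 3 are printed because they are the windows with a match. Capitals mark the matches, which on the minus strand appear as their reverse complement. The Sp5 window lies at chr2:70474673-70474922, the Lef1 window at chr3:131156044-131156293 and the Tcf7l2 window at chr19:55895071-55895320, all on the plus strand.
Sp5: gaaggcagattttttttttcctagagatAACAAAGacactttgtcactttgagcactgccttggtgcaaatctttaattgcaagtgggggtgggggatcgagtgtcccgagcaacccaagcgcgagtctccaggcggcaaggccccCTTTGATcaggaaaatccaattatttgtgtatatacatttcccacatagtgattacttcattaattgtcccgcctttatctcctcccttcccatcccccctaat
Lef1: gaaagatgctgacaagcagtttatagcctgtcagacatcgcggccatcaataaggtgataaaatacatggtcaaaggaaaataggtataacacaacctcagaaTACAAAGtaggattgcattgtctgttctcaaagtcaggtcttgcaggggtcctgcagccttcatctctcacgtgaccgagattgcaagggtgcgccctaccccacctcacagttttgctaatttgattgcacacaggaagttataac
Tcf7l2: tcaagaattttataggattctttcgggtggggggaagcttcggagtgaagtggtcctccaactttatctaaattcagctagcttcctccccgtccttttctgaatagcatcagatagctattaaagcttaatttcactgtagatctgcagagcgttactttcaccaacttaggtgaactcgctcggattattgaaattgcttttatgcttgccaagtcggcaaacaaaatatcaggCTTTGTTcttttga
The Sp5 window holds 2 matches, CTTTGTT on the minus strand 222 bases before the start and CTTTGAT on the plus strand 104 bases before it. At least 2 matches were found in 1.43% of all windows, and CTTTGAT in 3.21%. The Lef1 match is CTTTGTA on the minus strand, 147 bases before an internal start inside the gene, and the Tcf7l2 match is CTTTGTT on the plus strand, 14 bases before an internal start. A match is a description of the letters in the window and not a measured binding site.

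The 4 factors split into 2 pairs in the tumours: Tcf7 and Lef1 were higher than in wild-type colon, and Tcf7l1 and Tcf7l2 were lower. Tcf7 (chr11:52252371-52283014, minus strand; GRCm38), which encodes the factor also known as TCF-1, had 332, 373, 333, 276 and 327 normalized counts in the 5 wild-type libraries. In Apc tumours its lowest, median and highest values were 1868, 2343 and 3212, and in Apc/Tgif tumours 2221, 2398 and 3782. The lowest tumour thus lay far above the highest wild-type library. The difference on the scale of log2(normalized count + 1) was 2.87 (SE 0.141) for Apc tumours, 7.33-fold, and 2.99 (SE 0.141) for Apc/Tgif tumours, 7.93-fold. Here and below these differences come from limma with terms for group and sex, and p-values are adjusted by the Benjamini-Hochberg method over all 18445 genes, with a threshold of 0.05. The adjusted p for Tcf7 in Apc tumours was 1.36e-11.

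Lef1 (chr3:131110471-131224356, plus strand), the founding member of the family, was low in normal colon at 106, 130, 104, 90.1 and 144 normalized counts. Apc tumours ranged from 318 through a median of 920 to 1400, and Apc/Tgif tumours from 414 through 691 to 1374. Neither tumour group overlapped wild-type colon, although Lef1 varied among tumours more widely than Tcf7 did. The log2 difference was 2.93 (SE 0.323, adjusted p = 5.46e-07 by limma) in Apc tumours and 2.72 in Apc/Tgif tumours. T cells, which also express both genes, were followed through 17 markers. Of these, 1 was higher and 5 lower in Apc tumours (23.9% and 25.2% of all genes), and 1 higher and 4 lower in Apc/Tgif tumours (24.8% and 25.5%). The T cell markers summed to 1250 to 2774 in wild-type colon, 1765 to 2643 in the Apc tumours and 1298 to 2181 in Apc/Tgif tumours, ranges that overlap. The part of T cells in the levels of Tcf7 and Lef1 was not tested.

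Tcf7l1 (chr6:72626378-72789254, minus strand), which encodes TCF3, a factor known mostly for repression, went the other way. The wild-type libraries held 2652, 2544, 2583, 2510 and 2913 normalized counts. Apc tumours held 352 at the lowest, 389 at the median and 1504 at the highest, and Apc/Tgif tumours 315, 508 and 672. All 14 tumours were below all 5 wild-type libraries. Of the Apc tumours, 5 lay between 352 and 429, while replicates 5 and 6 stood at 1000 and 1504. The log2 difference was -2.36 (SE 0.312, adjusted p = 4.65e-06 by limma) in Apc tumours and -2.48 in Apc/Tgif tumours.

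Tcf7l2 (chr19:55741820-55933654, plus strand), which encodes TCF4, the main factor of intestinal crypts, had 4254, 4076, 3399, 3849 and 4442 normalized counts in wild-type colon. Its lowest, median and highest values were 1106, 1737 and 2561 in Apc tumours and 1489, 1841 and 1973 in Apc/Tgif tumours. Wild-type colon again overlapped neither tumour group. The log2 difference was -1.24 (SE 0.147, adjusted p = 1.35e-06 by limma) in Apc tumours and -1.19 in Apc/Tgif tumours.

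The lower levels of Tcf7l1 and Tcf7l2 came with lower muscle markers. The 12 smooth muscle markers summed to 214400 to 318800 in wild-type colon, 13890 to 23640 in the Apc tumours and 10580 to 19880 in Apc/Tgif tumours, and the part of this in the 2 genes was not tested across tumour and normal tissue. Among the Apc tumours, the library with the highest Tcf7l1 (replicate 6) also had the highest muscle sum, 23640, but the next highest (replicate 5, with 1000) had the lowest, 13890. Enteric neuron and glia markers were lower for 11 of 12 in Apc tumours and for 12 of 12 in Apc/Tgif tumours (25.2% and 25.5% of all genes).

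**Figure D1:**
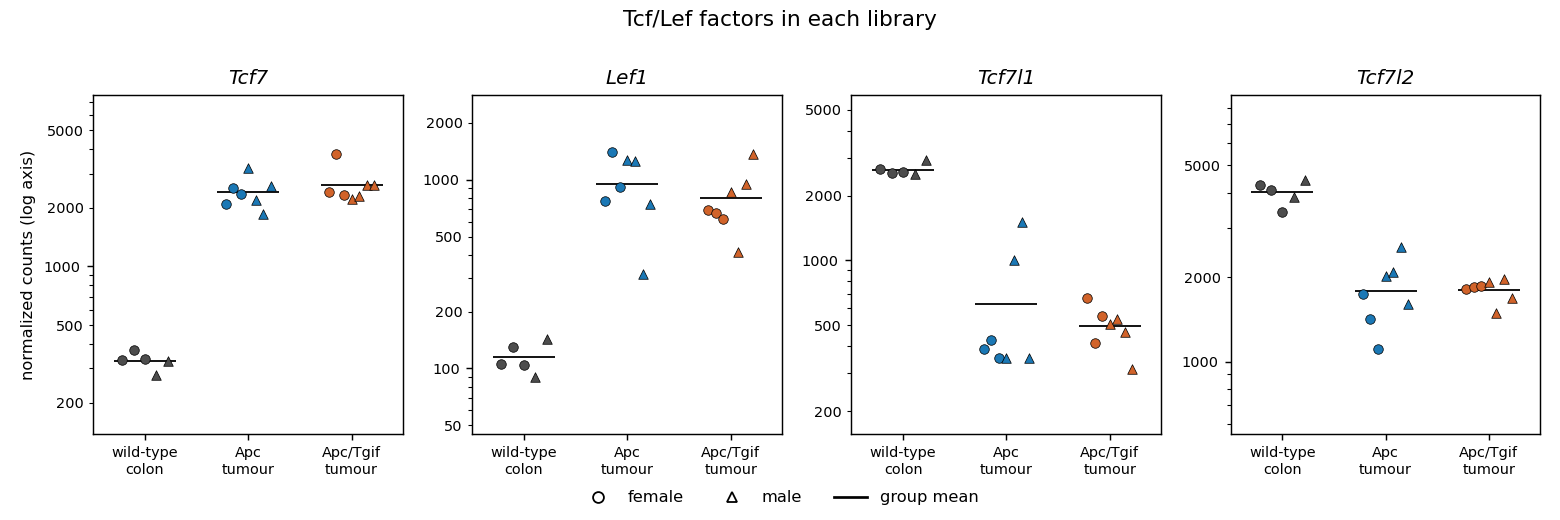
Normalized counts (log axis) of Tcf7, Lef1, Tcf7l1 and Tcf7l2 in each library of wild-type colon, Apc tumours and Apc/Tgif tumours, 1 point per library. Tcf7 and Lef1 lie higher and Tcf7l1 and Tcf7l2 lower in every tumour than in any wild-type library.

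**Figure D2:**
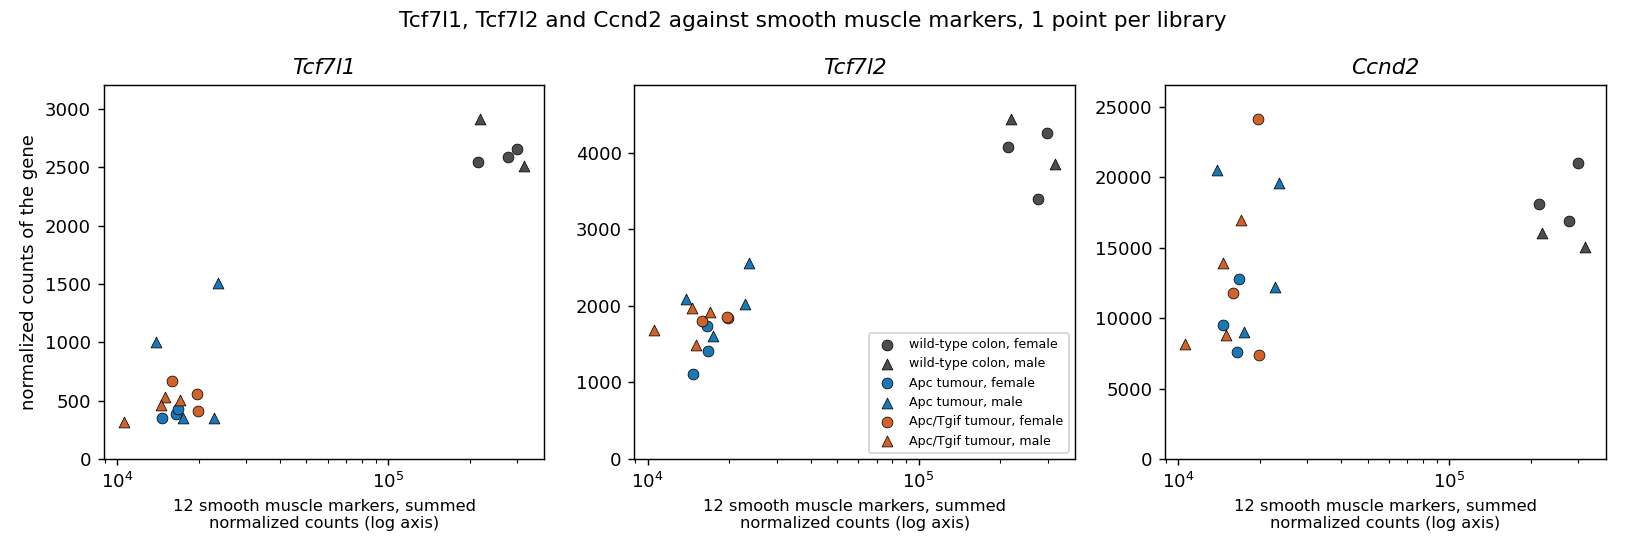
Normalized counts of Tcf7l1, Tcf7l2 and Ccnd2 against the summed normalized counts of 12 smooth muscle markers (log axis), 1 point per library. Wild-type colon lies to the right, at sums of 214400 to 318800, and all tumours lie to the left, at 10580 to 23640.

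The order of the 4 factors by level differed between normal and tumour tissue. Per kilobase of the longest coding transcript, the order in wild-type colon was Tcf7l2 with 1078 ± 108.5, Tcf7l1 with 868 ± 53.0, Tcf7 with 133 ± 13.9 and Lef1 with 33.0 ± 6.22 normalized counts (SD, n = 5). In Apc tumours Tcf7 came first with 974 ± 176 per kilobase, ahead of Tcf7l2 with 482 ± 129, Lef1 with 274 ± 110 and Tcf7l1 with 206 ± 149 (SD, n = 7). Lef1 and Tcf7l1 were within 1 SD of each other there. By the median coding transcript length, Tcf7l1 was instead level with Tcf7l2 in wild-type colon, at 1398 and 1369 per kilobase. The order in Apc/Tgif tumours was the same as in Apc tumours, with 1056, 484, 229 and 163 per kilobase for Tcf7, Tcf7l2, Lef1 and Tcf7l1. In both tumour groups the order of Lef1 and Tcf7l1 turned when the median transcript length was used.

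Ratios within a library do not depend on its scaling. The log2 ratio of Tcf7 to Tcf7l2 averaged -3.60 in wild-type colon, 0.45 in the Apc tumours and 0.52 in Apc/Tgif tumours. Wild-type libraries lay between -3.79 and -3.35 and Apc tumours between -0.45 and 1.08, without overlap. The difference was 4.06 for Apc tumours and 4.13 for Apc/Tgif tumours (adjusted p = 0.00253 each, exact permutation test over 12 ratio comparisons). For Lef1 to Tcf7l2 the differences from wild-type colon were 4.13 and 3.87, with the same adjusted p in the exact permutation test. For Tcf7l1 to Tcf7l2 they were -1.12 (adjusted p = 0.00758) and -1.29 (0.00253, exact permutation tests), so Tcf7l1 was reduced by more than Tcf7l2. The smallest unadjusted p that 5 against 7 libraries allow is 0.00126. Between the tumour groups none of the 3 ratios passed the exact permutation test, with adjusted p from 0.691 to 0.777.

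Among the targets, 5 of 6 were higher in both tumour groups, by amounts from under 2-fold to over 100-fold, and Ccnd2 did not pass the test. Sp5 (chr2:70474923-70477729, plus strand) encodes a zinc finger factor that is a direct Wnt target and is known to repress other Sp-bound genes. It was almost absent from normal colon, at 6.31, 6.85, 2.61, 5.75 and 3.42 normalized counts. Apc tumours had 363, 870 and 2096 as lowest, median and highest values, and Apc/Tgif tumours 373, 492 and 1440. Every tumour was far above every wild-type library, and the log2 difference was 7.30 (SE 0.396, adjusted p = 5.03e-11 by limma) in Apc tumours and 6.67 in Apc/Tgif tumours. With values of a few reads in wild-type colon, the fitted 157-fold and 102-fold depend on the added count of 1.

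Myc (chr15:61985391-61990374, plus strand), the growth and ribosome-biogenesis factor that is among the best known Tcf targets in colon cancer, had 1011, 1189, 1317, 1433 and 1019 normalized counts in wild-type colon. Apc tumours had 1613, 3182 and 3658 as lowest, median and highest values, and Apc/Tgif tumours 3167, 4263 and 6038. Both tumour groups lay above wild-type colon. The log2 difference was 1.30 (SE 0.195, adjusted p = 2.04e-05 by limma) for Apc tumours and 1.87 for Apc/Tgif tumours.

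Sox9 (chr11:112782224-112787760, plus strand), an HMG-box factor of crypt base and progenitor cells, stood at 2885, 3116, 3119, 3899 and 3169 normalized counts in wild-type colon. It ranged over 4208, 5630 and 6170 in Apc tumours and over 4290, 6671 and 8388 in Apc/Tgif tumours (lowest, median and highest). Neither tumour group overlapped wild-type colon. On the log2 scale it was 0.69 (SE 0.149, adjusted p = 0.000767 by limma) in Apc tumours and 0.96 in Apc/Tgif tumours. In males alone the Apc tumour difference was 0.49 and its adjusted p was 0.0599.

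Cd44 (chr2:102811141-102901665, minus strand), the hyaluronan receptor that marks crypt base cells and is also carried by leukocytes, had 2245, 2115, 2678, 2145 and 1812 normalized counts in wild-type colon. Its lowest, median and highest values were 5558, 8233 and 12339 in Apc tumours and 5203, 8319 and 12344 in Apc/Tgif tumours. Every tumour was above every wild-type library. The log2 difference from wild-type colon was 1.96 (SE 0.226, adjusted p = 9.04e-07 by limma) in Apc tumours and 1.91 in Apc/Tgif tumours. Macrophage markers were higher for 4 of 12 in Apc tumours and 9 of 12 in Apc/Tgif tumours (23.9% and 24.8% of all genes). The part of these and of the neutrophil markers in the Cd44 level was not tested.

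Of the D cyclins, which activate Cdk4 and Cdk6 to drive cells out of G1 phase, Ccnd1 and Ccnd2 differed from each other. Ccnd1 (chr7:144929931-144939925, minus strand) had 5164, 5164, 4357, 4445 and 3903 normalized counts in wild-type colon and 7124, 9783 and 11797 as lowest, median and highest in Apc tumours. Apc/Tgif tumours had 3935, 9660 and 11445; their replicate 2, at 3935, was the only one inside the wild-type range, and the other 6 were above it. The log2 difference was 1.08 (SE 0.208, adjusted p = 0.000271 by limma) in Apc tumours and 0.94 in Apc/Tgif tumours. In females alone the latter was 0.69 (adjusted p = 0.133 by limma).

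Ccnd2 (chr6:127125162-127152193, minus strand) had 20995, 18088, 16899, 15069 and 16025 normalized counts in wild-type colon, 7585, 12200 and 20505 in the Apc tumours and 7375, 11800 and 24146 in Apc/Tgif tumours (lowest, median and highest). The tumours reached from far below the wild-type range to its top or beyond. The log2 differences were -0.52 (95% interval -1.12 to 0.08, adjusted p = 0.145 by limma) and -0.54 (adjusted p = 0.124). On leaving out any 1 library the Apc difference ran from -0.63 to -0.38 and was never called. It was called at -0.79 with Apc replicates 5 and 6 both left out (adjusted p = 0.0206 by limma). A set of 4 libraries added Apc/Tgif replicate 2 and wild-type replicate 1 to those 2. With all 4 left out the Apc difference was called at -0.74 (adjusted p = 0.0256 by limma). Both sets were chosen after seeing the data, and the second contains the first. The Apc/Tgif difference was called on leaving out replicate 3, the tumour with the highest Ccnd2, at -0.76 (adjusted p = 0.0187 by limma). The log2 ratio of Ccnd1 to Ccnd2 was nonetheless higher in tumours, at -1.92 ± 0.126 in wild-type colon, -0.34 ± 0.687 in the Apc tumours and -0.46 ± 0.537 in Apc/Tgif tumours (SD, n = 5, 7 and 7; adjusted p = 0.00433 and 0.00253, exact permutation tests).

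**Figure D3:**
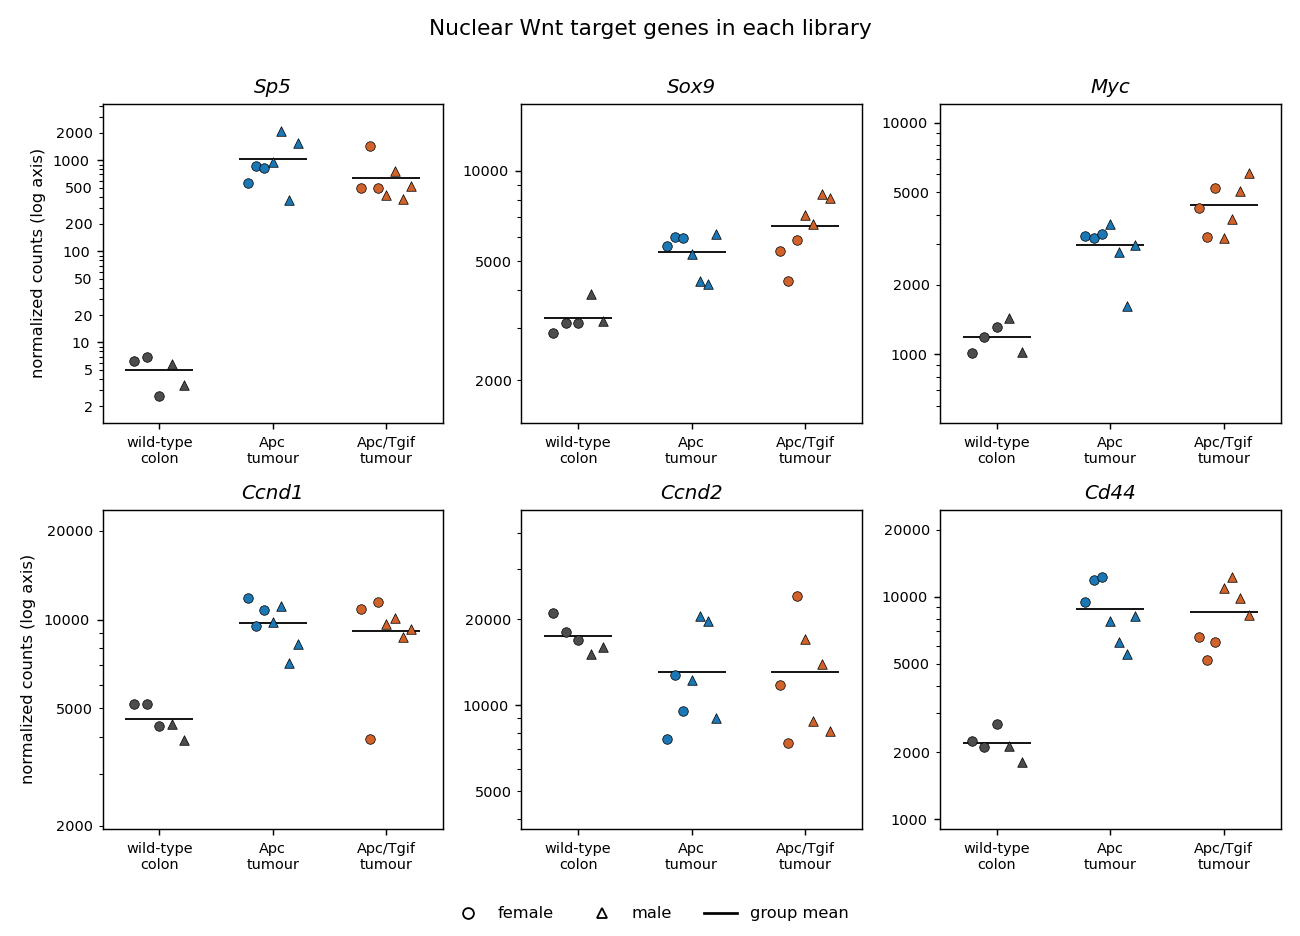
Normalized counts (log axis) of Sp5, Sox9, Myc, Ccnd1, Ccnd2 and Cd44 in each library of the 3 groups, 1 point per library. Sp5 lies at 2.61 to 6.85 in wild-type colon and at 363 or more in every tumour, and Ccnd2 is the gene whose tumours spread over and below the wild-type range.

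Counted over the 10 genes, 7 were higher and 2 lower in Apc tumours than in wild-type colon. Of all 18445 genes, 23.9% were called higher and 25.2% lower in that comparison. In Apc/Tgif tumours, which were set against the same wild-type libraries, 7 were again higher and 2 lower, against 24.8% and 25.5% of all genes. Groups did not overlap for 7 higher and 2 lower genes in Apc tumours (14.0% and 15.4% of all genes), and for 6 higher and 2 lower in Apc/Tgif tumours (14.1% and 16.5%). The 10 genes were picked with results of these data known.

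Between the tumour genotypes, Myc was the only one of the 10 genes that passed the test. It was 2964 ± 658 normalized counts in Apc tumours and 4398 ± 1081 in Apc/Tgif tumours (SD, n = 7 each), a log2 difference of 0.57 (SE 0.176, 95% interval 0.20 to 0.94, adjusted p = 0.0316 by limma). The genotypes overlapped: 2 of the 7 Apc/Tgif tumours, at 3167 and 3219, were within the Apc range, which ended at 3658. The call was fragile. It was lost on leaving out any of Apc replicates 5 and 6 or Apc/Tgif replicates 3, 6 and 7, with differences of 0.43 to 0.56 and adjusted p of 0.0512 to 0.0718 by limma. In a fit of the 2 tumour groups alone it was 0.57 and not called (adjusted p = 0.0610 by limma). With a term for the smooth muscle markers added to the tumour libraries alone it was 0.50 (adjusted p = 0.0757 by limma).

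The other 9 genes did not pass. The differences were 0.11 for Tcf7 (95% interval -0.15 to 0.38), -0.21 for Lef1 (-0.82 to 0.40), -0.12 for Tcf7l1 (-0.71 to 0.47) and 0.05 for Tcf7l2 (-0.23 to 0.32), all on the log2 scale. For the factors, then, changes of 2-fold in either direction lie outside all 4 intervals. Sp5 had the largest difference in size, -0.63 (-1.38 to 0.12). For Sox9 it was 0.27 (-0.01 to 0.55), for Ccnd1 -0.14 (-0.53 to 0.25), for Ccnd2 -0.03 (-0.57 to 0.51) and for Cd44 -0.05 (-0.48 to 0.38). The 1 gene called higher and the 0 called lower compare with 7.88% and 8.76% of all genes. All 10 genes overlapped between the genotypes, where 2.30% of all genes were separated upward and 1.77% downward.

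**Figure D4:**
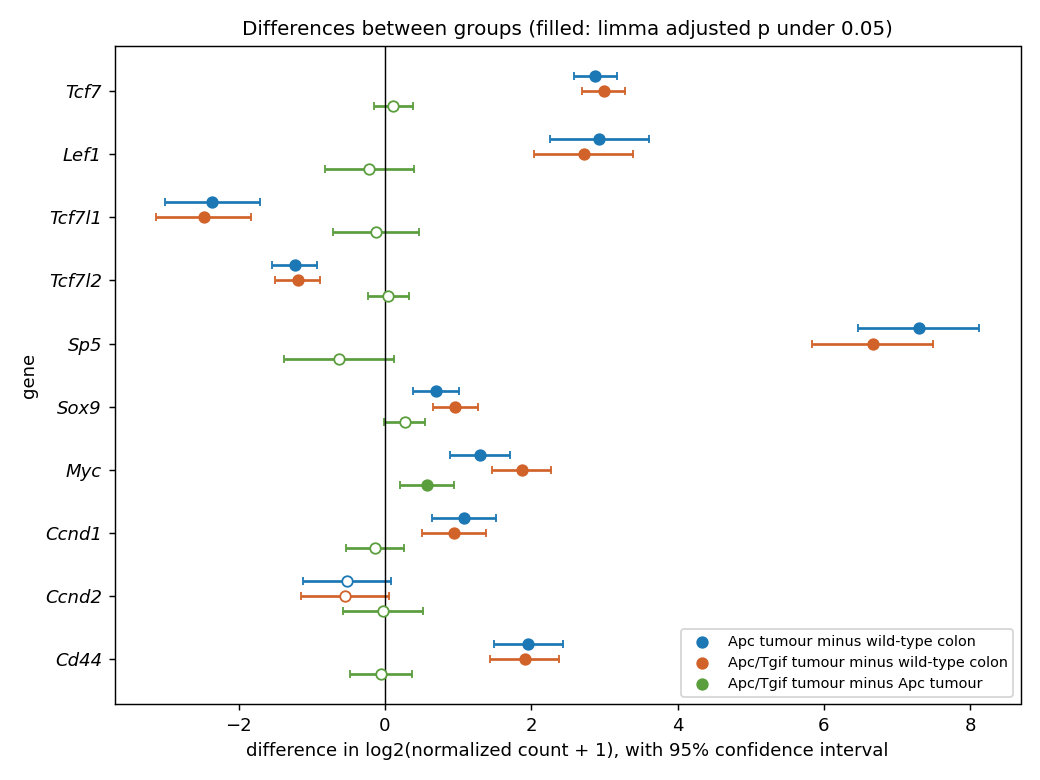
Log2 differences of the 10 genes with their limma intervals, for each tumour group against wild-type colon and for Apc/Tgif against Apc tumours. Filled points have an adjusted p under 0.05: 9 genes in each comparison with wild-type colon, and Myc alone between the tumours.

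The near-zero average for Cd44 hid opposite differences in the sexes. Female Apc tumours had 9452, 11904 and 12339 normalized counts of Cd44, and female Apc/Tgif tumours 6618, 5203 and 6254. Male Apc tumours had 7794, 6286, 5558 and 8233, and male Apc/Tgif tumours 11014, 12344, 9921 and 8319. Within each sex the genotypes did not overlap, and the order was reversed between the sexes. How many of all genes separate this way, with 3 females or 4 males per genotype, was not counted. The log2 difference of Apc/Tgif from Apc tumours was -0.90 in females and 0.58 in males. The male minus the female value was 1.48 (SE 0.231, adjusted p = 0.000707 by limma), and it was called under all 24 other settings and sample sets for this test, at 1.37 or more.

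Sox9 showed the same arrangement in part. Male tumours had 5285, 4288, 4208 and 6170 normalized counts with the Apc genotype and 7151, 6671, 8388 and 8118 with Apc/Tgif, with no overlap. Female tumours had 5630, 6042 and 5994 against 5408, 4290 and 5868, which overlap. The share of all genes separated in males was not counted. The log2 difference was 0.62 in males and -0.19 in females, and the male minus the female value was 0.81 (SE 0.202, adjusted p = 0.00984 by limma). A sex difference between the tumour genotypes was called for 2 of the 10 genes, and for 23.6% of all genes. The 2 genes are therefore no larger a share than the background.

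Against wild-type colon, Cd44 was higher by 2.38 in male and by 1.36 in female Apc/Tgif tumours on the log2 scale. The difference of 1.02 had an adjusted p of 0.0374 by limma, and it was the 1 sex difference among the 10 genes, where 3.40% of all genes had one. It was lost on leaving out any of wild-type replicates 1, 3, 4 and 5, Apc replicate 3 or Apc/Tgif replicates 2, 4 and 6, at 0.90 to 1.14 with adjusted p up to 0.146. None of the 10 genes had a called sex difference between Apc tumours and wild-type colon, and 0.0108% of all genes did. Wild-type colon had 2 males, which limits these tests. Summed macrophage markers were 27680 to 31000 in female Apc tumours, 16010 to 21910 in male Apc tumours, 18310 to 31830 in female and 24750 to 26820 in male Apc/Tgif tumours. Summed neutrophil markers were 21030 to 33260 in female and 13320 to 32470 in male Apc tumours. In Apc/Tgif tumours they were 6463 to 29340 in females and 8387 to 16830 in males. The part of either marker set in the Cd44 difference was not tested.

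**Figure D5:**
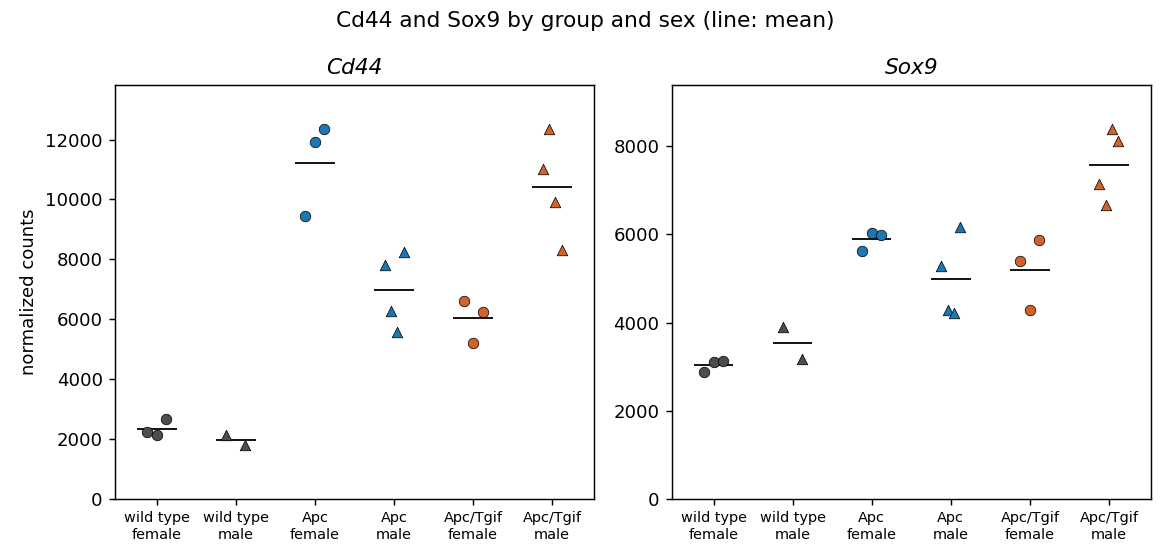
Normalized counts of Cd44 and Sox9 by group and sex, 1 point per library with a line at the mean. Cd44 is higher in female than male Apc tumours and lower in female than male Apc/Tgif tumours.

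Single tumours set much of the spread. Apc replicate 6 had the lowest Tcf7 (1868), Lef1 (318), Sox9 (4208), Myc (1613), Sp5 (363), Ccnd1 (7124) and Cd44 (5558) of the Apc tumours and the highest Tcf7l1 (1504) and Tcf7l2 (2561). Apc replicate 5 came next to it at the same end for Tcf7l1 (1000), Tcf7l2 (2084), Sox9 (4288), Cd44 (6286) and Myc (2757), and both had high Ccnd2 (20505 and 19633). The pair differed in Lef1 (1252 in replicate 5) and in Sp5 (2096, the highest of the group). Apc/Tgif replicate 2 combined the highest Tcf7 (3782) and Sp5 (1440) of its group with the lowest Ccnd1 (3935), Ccnd2 (7375), Sox9 (4290) and Cd44 (5203).

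For each gene the tested genes with the most similar log2 values over the 19 libraries were listed, as a description, since all genes share the group structure. Tcf7 followed Mmp7 (Pearson r = 0.993), a matrix protease and Wnt target, and Arl4c (0.989). Sp5 followed Dkk2 (0.988), a secreted Wnt modulator, and Prkg2 (0.988). Tcf7l2 followed Brpf3 (0.98) and the Wnt receptor Fzd5 (0.965). Group and sex were then removed as separate terms, which keeps any sex difference that is unlike between the groups. Such a difference was called for Cd44 and Sox9 between the tumours. After this removal Lef1 still followed Aox4 (0.976), and Tcf7l1 followed Cyp2f2 (0.941). Tcf7l2 followed the vitamin D receptor Vdr (0.93) and Fzd5 (0.926), and Cd44 followed Il33 and the tropomyosin Tpm4 (0.943 each). For the other genes the highest values after that removal were 0.934 for Sox9 with Anxa4, 0.937 for Ccnd1 with Slc10a3, 0.922 for Ccnd2 with the growth factor receptor Fgfr2, 0.889 for Myc with Cbarp, 0.881 for Sp5 with Eva1b and 0.881 for Tcf7 with Nfe2l2.

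The counts of called genes in the lists that follow are to be read against all 18445 genes: 23.9% higher and 25.2% lower in Apc tumours, 24.8% and 25.5% in Apc/Tgif tumours, and 7.88% and 8.76% between the tumours. The partners of the Tcf/Lef factors were divided in direction. Of 17 β-catenin cofactors, 8 were higher and 2 lower in Apc tumours, with a median log2 difference of 0.27 against -0.01 over all genes. Bcl9, which tethers Pygo to β-catenin, was higher by 0.91 (1037 to 1955 normalized counts), and the ATPase Ruvbl1 by 0.86. β-catenin itself, Ctnnb1, was 35170 in wild-type colon and 56970 in Apc tumours. Of 17 corepressors and antagonists, 5 were higher and 4 lower (median 0.09). The Groucho family corepressor Tle4 was lower, at 4597 and 1925 normalized counts (log2 difference -1.34), and Nlk, a kinase that phosphorylates Tcf/Lef factors, was higher by 1.19. Of 17 genes of the destruction complex and its regulators, 4 were higher and 1 lower (median 0.18), a smaller called share than over all genes. Among them the feedback scaffold Axin2 went from 1406 ± 181 to 10110 ± 2861 (log2 difference 2.83), and the tankyrase Tnks2 was higher by 0.84.

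Between the tumours, Bcl9l was the 1 cofactor that was higher in Apc/Tgif tumours (0.61), while 2 were lower, among them Ruvbl1 (-0.44). Of the corepressors, Tle3 was higher (0.48) and Tle6 lower (-1.25). In the destruction complex the tankyrase Tnks (0.81) and Axin2 (0.59, to 15380 normalized counts) were higher and none was lower.

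Other Wnt targets shared the direction of Tcf7, Lef1 and Sp5. Of 33 tested, 28 were higher and 2 lower in Apc tumours, and 27 were higher and 1 lower in Apc/Tgif tumours, with medians of 1.70 and 2.03 on the log2 scale. Over all genes 23.9% and 24.8% were higher, and 25.2% and 25.5% lower. The largest differences were those of Mmp7 (11.52) and Notum (8.94), a secreted enzyme that inactivates Wnt ligands; wild-type colon held 6.18 and 9.76 normalized counts of them. Between the tumours 9 were higher and 5 lower in Apc/Tgif tumours, against 7.88% and 8.76% of all genes. Id2, an inhibitor of bHLH factors, was higher by 0.95, and the AP-1 subunit Fosl1 was lower, at -1.29.

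The Myc network and its targets did not move as 1 block. Of 13 partners and antagonists of Myc, 5 were higher and 5 lower in Apc tumours (median 0.17). Mycl, a paralog of Myc, was higher by 1.66, and Mxd1, which competes with Myc for Max in differentiated cells, was lower at -1.96 (28260 to 7988 normalized counts). Of 28 Myc targets, mostly of ribosome biogenesis, 22 were higher and 1 lower (median 0.63), among them the cyclin D kinase Cdk4 (1.45) and the nucleolar protein Nop56 (0.94). Between the tumours, where Myc itself was higher in Apc/Tgif tumours, 1 of these 28 was higher and 3 were lower (median -0.17 against -0.01 over all genes). Nme1 was higher by 0.59 and Utp20 lower at -0.67. In the network 3 were higher, among them the paralogs Mycn (0.96) and Mycl (0.53), and 0 were lower.

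Around the D cyclins, 7 of 19 partners and inhibitors were higher and 5 lower in Apc tumours (median 0.34; 23.9% and 25.2% of all genes). The largest called differences were those of the Cdk inhibitor genes Cdkn2a (5.69, from 2.02 to 152 normalized counts) and Cdkn1c (2.62). In Apc/Tgif against Apc tumours 6 were higher and 0 lower (7.88% and 8.76% of all genes), led by the retinoblastoma gene Rb1 (1.01) and Cdkn2d (0.98).

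The families of Sp5 and Sox9 and the ligands of Cd44 varied in direction. Of 12 Sp and Klf genes, Sp5 itself included, 3 were higher and 2 lower in Apc tumours. After Sp5, the next largest was its relative Sp6 (4.14), which was then lower in Apc/Tgif than in Apc tumours (-1.46, 110 against 319 normalized counts). Of 14 Sox genes, Sox9 itself included, 9 were higher and 2 lower in Apc tumours (median 0.82). Sox11 was higher by 4.52, and Sox10, a marker of enteric glia, was lower at -4.96. Between the tumours Sox12 was lower (-1.74) and Sox17 higher (1.33, from 939 to 2498 normalized counts). Of 15 genes of hyaluronan metabolism and Cd44 binding, Cd44 itself included, 7 were higher and 3 lower in Apc tumours (median 0.56). They were led by Spp1 (8.32), which encodes osteopontin, a Cd44 ligand, and the hyaluronan-degrading protein Cemip (5.19). Between the tumours 4 of the 15 were lower and 0 higher in Apc/Tgif tumours, and the largest were Cemip (-2.50) and the hyaluronan synthase Has2 (-1.38).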

How the data were processed

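Poly-A RNA from 19 mouse colon libraries was read as single-end sequence of 75 bases, per the labels' protocols. The authors deposited 1 table of normalized counts per gene, a signal that is not whole-numbered. Salmon and DESeq2 are named with GRCm38 and mm10 in the submitters' processing notes, and no version, annotation or strand setting is stated there, so overlapping antisense genes cannot be told apart. Between 82.4% and 85.5% of low values were whole multiples of 1 step (0.745 to 1.44 normalized counts) within a tolerance of 0.1 step, so whole reads could not be restored and count models were left out.

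Genes with a normalized count of 10 in at least 5 libraries were tested on the scale of log2(normalized count + 1) by limma 3.58.1 (R 4.3.3), using trend, robust moderation, group and sex terms and all 19 libraries. Tests were two-sided. The sex test used 1 mean per group and sex. Ratios were tested by exact two-sided permutation. Scripts were tested on simulated data, where 54 to 66 of 100 2-fold changes were recovered per comparison. False calls were 2.86% to 8.44% of the calls there. The members and gene lists were chosen with earlier results of these data known. Named list genes are the 2 called genes with the largest difference and a mean of at least 100 normalized counts; Ctnnb1 was added after its values were seen. Promoter sequences are from RefSeq, GRCm38.p6, and gene coordinates from GRCm38. Alternatives changed the scaling, filter, added count, weights, groups and sexes in the fit, and left out each library in turn. Chosen after seeing the data were leaving out Apc replicates 5 and 6, and leaving out 4 libraries. The 4 were those 2, Apc/Tgif replicate 2 and wild-type replicate 1. Also chosen then was a smooth muscle term, fitted to the tumour libraries alone.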

Additional observations from a re-analysis of the deposited data

Results flagged for a closer look

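In 4 cases 1 library stood apart from the other 6 of its group by Dixon's criterion on the log2 scale. They were Tcf7 in Apc/Tgif replicate 2 (3782 normalized counts, the highest), Lef1 in Apc replicate 6 (318, the lowest), Myc in Apc replicate 6 (1613, the lowest) and Ccnd1 in Apc/Tgif replicate 2 (3935, the lowest). There were 30 combinations of gene and group, and chance gives about 1 in 20.

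The difference of Apc/Tgif from Apc tumours depended on sex for Cd44 (male minus female 1.48 on the log2 scale) and for Sox9 (0.81). For Cd44 the difference of Apc/Tgif tumours from wild-type colon did as well (1.02). Each passed the limma test of the difference itself.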

How the results depend on the processing

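Each result was recomputed under up to 32 alternatives. Of the called values, 576 stayed called in the same direction and 14 lost the call. Of those not called, 341 stayed so, 8 gained a call and 1 reversed: Cd44 between the tumours, 0.58 in males alone. The 7 higher and 2 lower genes against wild-type colon stayed 7 and 2 in Apc tumours on leaving out any 1 library; in Apc/Tgif tumours they stayed at 7, with 2 to 3 lower. Between the tumours, the count called higher, 1 (Myc), was 0 with quantile normalization, equal library totals, only the 2 groups, or females alone. It was also 0 with Apc replicates 5 and 6 left out, or with a smooth muscle term added to the 2 tumour groups alone. It was 2 with array quality weights (Sox9 joined) and 2 in males alone (Sox9 and Cd44, without Myc), and 0 to 1 on leaving out 1 library. The count called lower, 0, was 1 with array quality weights (Sp5, -1.07), 1 in females alone (Cd44, -0.90) and 1 with 4 libraries left out (Sp5, -0.93). The count of sex differences in Apc/Tgif tumours against wild-type colon was 0 to 1 on leaving out 1 library. The log2 ratio of Ccnd1 to Ccnd2 between the tumours was -0.83 in females alone, where ratios were not tested. The sex difference of Tcf7l2 between the tumours, -0.61, passed without Apc replicate 1 (-0.77) or 7 (-0.73). The cause was not tested. Equal library totals put the median of all genes at 0.18 and 0.14, against -0.01 and 0.00 as deposited, in the comparisons with wild-type colon. The total of Apc/Tgif replicate 5 held 9.35% from 1 gene, Rn45s, and the highest gene of any other library made up at most 3.5%. No paired analysis was possible because the library titles carry running numbers that no 2 groups share, and the replicate numbers used here only name libraries in accession order. Depth limits Sp5 in wild-type colon, where values are a few reads.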

Other observations

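The genes most similar to Ccnd2 over the 19 libraries were Hoxd12 (Pearson r = 0.895), Hs3st5 (0.879), a heparan sulfate sulfotransferase gene, and Hoxd10 (0.868). Hoxd12 and Hoxd10 are posterior HoxD genes, which specify position along the body axis. Hs3st5 was low throughout, at 0 to 40.4 normalized counts. In wild-type colon Hoxd10 was 308 to 673 normalized counts. Apc replicates 5 and 6 had 655 and 918 and Apc/Tgif replicate 3 had 613, and these were the 3 tumours with the highest Ccnd2 (20505, 19633 and 24146). Apc replicate 2 and Apc/Tgif replicates 4 and 6 had 383, 453 and 406, with Ccnd2 of 12762, 17006 and 13884. The remaining 8 tumours had 0.74 to 16.1 of Hoxd10 and 7375 to 12200 of Ccnd2. Hoxd12 was 2193 and 614 in Apc replicates 5 and 6 and 1949 in Apc/Tgif replicate 3, above 457, the highest wild-type value.

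Aox4, an aldehyde oxidase gene and the one most similar to Lef1, was 0 in 4 wild-type libraries and 1.14 in the other. Among Apc tumours it ranged from 44.5 in replicate 6, which also had the lowest Lef1, to 927. Il33 encodes an alarmin cytokine and was among the genes most similar to Cd44 after removal of the group and sex terms. It was 2718, 3520 and 4738 normalized counts in the 3 female Apc tumours and 75.5 to 261 in the 3 female Apc/Tgif tumours. In males it was 476 to 1380 and 592 to 1202.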
